A study of Caenorhabditis elegans with 4 samples.

Results

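Heterotrimeric G protein signalling was described here through 53 genes of the nematode Caenorhabditis elegans, out of 15168 named genes with a probe on the array. The members were taken by name from the platform's probe annotation: the G protein subunit classes gpa, gpb and gpc, the classes rgs, gpr, arr, grk, acy and pde, and the genes goa-1, gsa-1, egl-30, odr-3, egl-10, eat-16, egl-8 and dgk-1. They were read by 57 probes, with 2 probes each for acy-3, pde-1, pde-3 and rgs-6. The alpha subunit gene gpa-16, and gpr-1 apart from gpr-2, were not analysed here. Each of 4 arrays of 2 colours held RNA from a different preparation (1 to 4) of adult males mutant for him-5, beside RNA of wild-type worms of mixed stages, which serves as the reference. Loss of him-5 disturbs segregation of the X chromosome and so raises the share of males among the progeny. Values are log2 ratios, males over reference. That direction is likely rather than settled, since no dye is named in the labels, and all 10 sperm markers were higher in males in it (median 4.60). Sex, genotype and stage differ together between males and reference, and their parts in a ratio cannot be told apart. In RNA from whole worms, fewer cells of a type and less RNA per cell cannot be told apart either.

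A heterotrimeric G protein couples a receptor in the membrane to enzymes inside the cell. The activated receptor makes the alpha subunit exchange GDP for GTP and part from the beta and gamma subunits, and RGS proteins (regulators of G protein signalling) end the signal by speeding GTP hydrolysis. In the worm, the alpha subunits GOA-1 and EGL-30 act against each other on transmitter release from motor neurons, GSA-1 raises cyclic AMP, and a large set of further alpha subunits is found mostly in chemosensory neurons.

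The G protein genes were more often lower than higher in males. Of the 53, 22 were lower and 2, dgk-1 and gpa-15, were higher at an adjusted p under 0.05, while 29 were not called. In either direction 45.3% of the G protein genes were called, beside 45.7% of all 19214 features tested. Of the G protein genes 41.5% were lower and 3.77% higher, beside 23.6% lower and 22.1% higher over all features. The median log2 ratio of the 53 genes was -0.43, against 0.05 for all features. On preparations 1, 2, 3 and 4 the median of the 53 was -0.52, -0.57, -0.30 and -0.41, so that the shift was seen on each array, where the median of all tested features lay between -0.01 and 0.07. Below 0 on all 4 arrays stood 26 of the 52 genes with 4 values, beside 30.5% of all features with 4 values, and 4 stood above 0 on all 4, beside 32.6%. At least 2-fold differences were called for 11 lower genes, beside 12.1% of features, and for 1 higher gene, beside 13.2%.

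Without preparation 3, 14 of the 53 genes were lower and 0 higher, while their median log2 ratio was -0.44. Calls over all features also dropped without it, to 2902 lower, against 4535 with all preparations. Each array was also set to a median of 0 over its ribosomal protein genes (ribosomal centring) or over its chemoreceptor genes (chemoreceptor centring). Ribosomal centring shifted the median over all features by -0.40 and gave the 53 genes 23 lower and 0 higher calls, and chemoreceptor centring shifted it by -0.34 and gave 27 lower and 0 higher calls. Over all features, 26.4% and 26.2% of the calls were then higher, against 48.3% for the values as deposited. Lower calls over all features then numbered 4536 under ribosomal and 5618 under chemoreceptor centring, against 4535 for the values as deposited. The median of the 53 minus that of all features was -0.48 for the values as deposited, -0.34 with array weights and -0.38 without preparation 2.

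**Figure D1:**
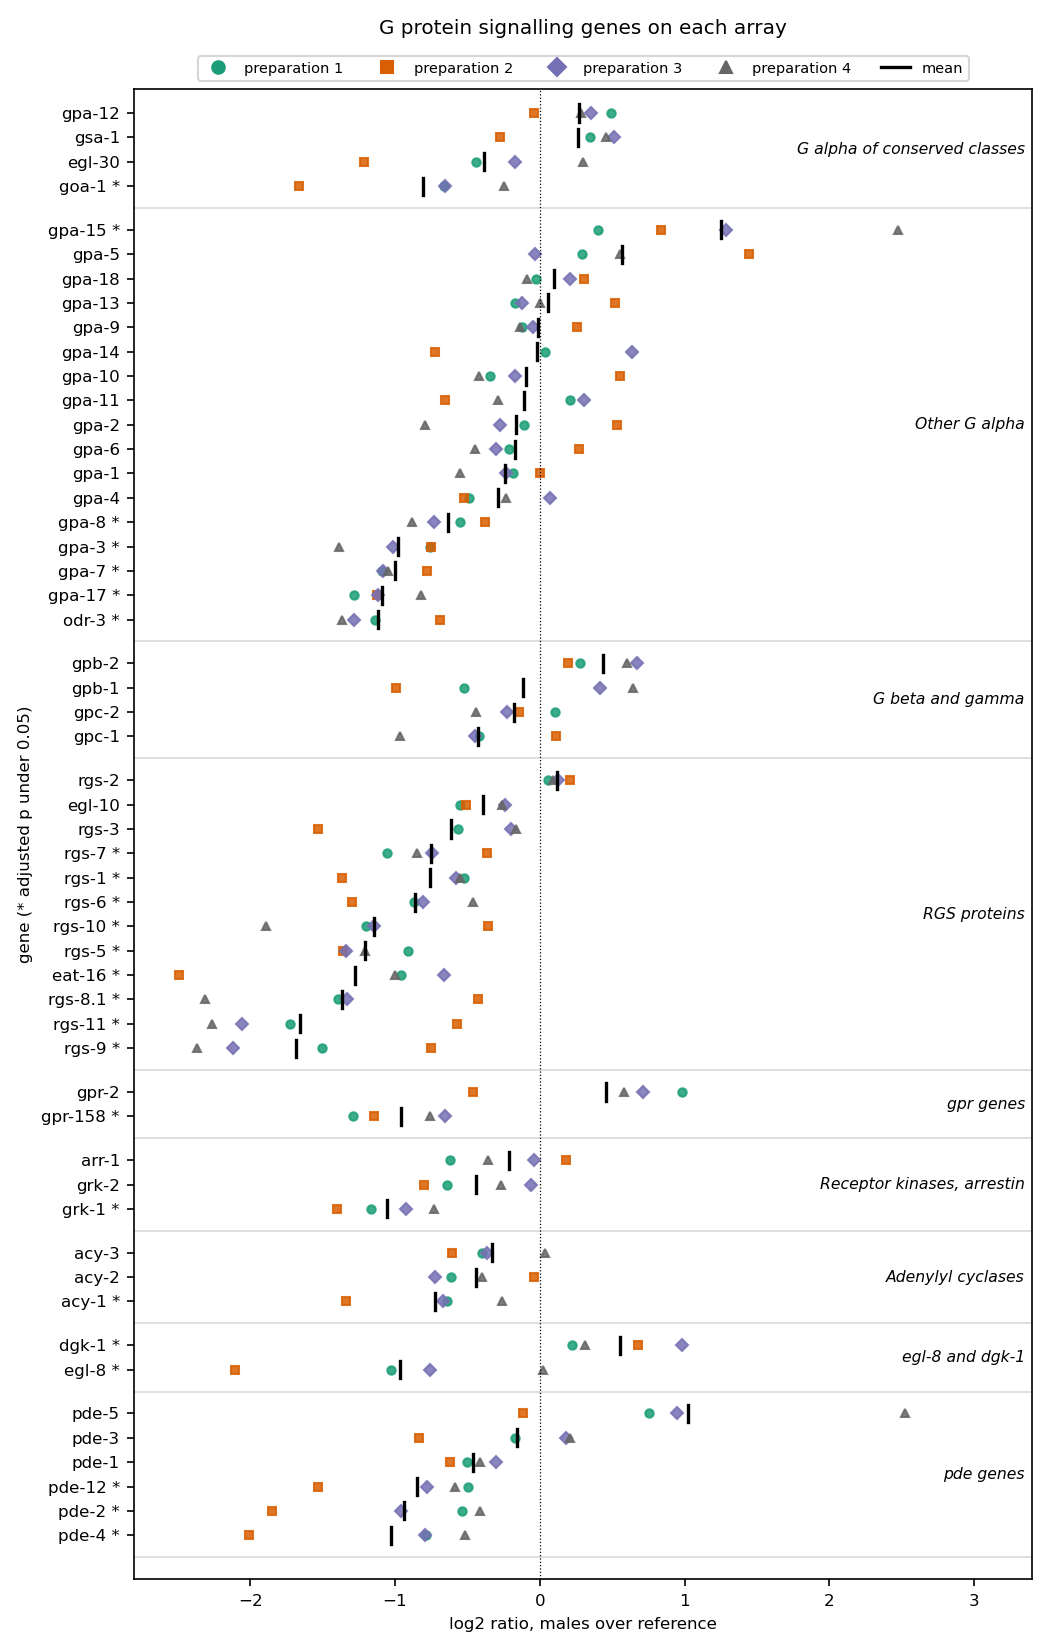
Each row is 1 gene and each symbol its log2 ratio (males over reference) on 1 of the 4 preparations, grouped by class, with the mean as a black bar and called genes starred. Of the 12 RGS genes 11 had a mean below 0, and the squares of preparation 2 often lie at one end of a row.

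Among the alpha subunits of classes shared with vertebrates, goa-1 was lower in males and the other members were not called. GOA-1 is the worm's Go alpha subunit, which restrains transmitter release and egg laying and, in the embryo, helps to place the mitotic spindle. Its log2 ratio was -0.66, -1.66, -0.66 and -0.25 on preparations 1 to 4, below 0 on each and lowest on preparation 2. The mean was -0.81 ± 0.60 (SD, n = 4, adjusted p = 0.032), 1.75-fold below the reference. The call was lost without preparation 1 (-0.86, adjusted p = 0.0716), 2 (-0.52, adjusted p = 0.0533) or 3 (-0.86, adjusted p = 0.0812). For egl-30, the Gq alpha subunit that promotes transmitter release, the arrays gave -0.44, -1.21, -0.17 and 0.30, with signs on both sides of 0 and a mean of -0.38 ± 0.63 (SD, n = 4, adjusted p = 0.246). The Gs alpha subunit gene gsa-1 stood at 0.34, -0.27, 0.52 and 0.46, and gpa-12, a further alpha subunit gene of this group, at 0.49, -0.04, 0.35 and 0.28. In both, preparation 2 alone lay below 0, and the means of 0.26 ± 0.36 and 0.27 ± 0.23 (SD, n = 4) had adjusted p = 0.297 and adjusted p = 0.227.

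The other 17 alpha subunits, largely sensory genes in the worm, gave 5 lower and 1 higher call with a median of -0.16. Their 29.4% lower is near the 23.6% of all features, and their 5.88% higher is below the 22.1%. The lowest was odr-3, whose product acts in the sensory cilia of olfactory and nociceptive neurons: -1.14, -0.69, -1.29 and -1.37, all below 0 and nearest to it on preparation 2. Its mean of -1.12 ± 0.30 (SD, n = 4, adjusted p = 0.00258) is 2.17-fold below the reference. Close to it was gpa-17 at -1.29, -1.13, -1.12 and -0.82, a mean of -1.09 ± 0.19 (SD, n = 4, adjusted p = 0.00201). The arrays of gpa-7, a gene active in many neurons and in muscle, were nearly equal at -1.09, -0.78, -1.08 and -1.05, with a mean of -1.0 ± 0.15 (SD, n = 4, adjusted p = 0.00256). Also lower were gpa-3, which acts in chemosensory neurons and in the response to dauer pheromone, at -0.98 ± 0.30 (SD, n = 4, adjusted p = 0.00461), and gpa-8 at -0.63 ± 0.22 (SD, n = 4, adjusted p = 0.0201). The call of gpa-8 was lost without preparation 1, 3 or 4 (log2 ratios -0.66, -0.60 and -0.55, with adjusted p = 0.0601, 0.108 and 0.0671). In the annotation of assembly WBcel235, gpa-8 and gpa-9 are separated by 1 protein-coding gene, yet gpa-9 stood at -0.01 ± 0.18 (SD, n = 4, adjusted p = 0.953).

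The only alpha subunit gene called higher was gpa-15, reporters of which have been described in chemosensory neurons and in many neurons found only in males. It measured 0.40, 0.84, 1.28 and 2.48 on preparations 1 to 4, above 0 on each and highest on preparation 4. The mean of 1.25 ± 0.89 (SD, n = 4, adjusted p = 0.0175) is 2.38-fold above the reference. The call was lost without preparation 3 (1.24, adjusted p = 0.0532) as well as under ribosomal centring (0.85, adjusted p = 0.142) and chemoreceptor centring (0.91, adjusted p = 0.0983). Next in order was gpa-5, which modulates olfactory responses, at 0.57 ± 0.64 (SD, n = 4, adjusted p = 0.107), with arrays from -0.03 to 1.45. The remaining 10 genes of the group (gpa-1, gpa-2, gpa-4, gpa-6, gpa-9, gpa-10, gpa-11, gpa-13, gpa-14 and gpa-18) had means between -0.29 and 0.10 and none was called. Of these, gpa-14 had values on 3 arrays.

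None of the beta and gamma subunit genes was called by limma, and 1 of the 4, gpb-2, had an unadjusted p under 0.05. GPB-1 is the general beta subunit, and gpb-1 split the arrays at -0.53 and -0.99 on preparations 1 and 2 against 0.42 and 0.64 on preparations 3 and 4 (mean -0.12 ± 0.77, SD, n = 4, adjusted p = 0.76). In the sample titles, preparations 1 and 2 are also the earlier pair of arrays and preparations 3 and 4 the later. GPB-2 is a divergent beta subunit that pairs with the RGS proteins EGL-10 and EAT-16 in place of a gamma subunit. The arrays gave gpb-2 ratios of 0.28, 0.20, 0.67 and 0.60, all above 0, with a mean of 0.44 ± 0.23 (SD, n = 4, adjusted p = 0.0747). It was called higher with array weights (0.58, adjusted p = 0.00358) and with the earlier and later pair of arrays in the sample titles as a random block (adjusted p = 0.0457). The random block left the mean at 0.44, and its estimated correlation within a pair was negative, at -0.22. Both settings also raised the higher calls over all features, from 4242 to 6074 and 5044. The gamma subunit gene gpc-1, which acts in taste adaptation, stood at -0.42, 0.11, -0.45 and -0.96 (mean -0.43 ± 0.44, SD, n = 4, adjusted p = 0.129). It was called lower without preparation 2 (-0.61, adjusted p = 0.0434), under chemoreceptor centring (-0.77, adjusted p = 0.024) and on weighting the arrays (-0.47, adjusted p = 0.0127), and stood at -0.25 without preparation 4. For gpc-2, the broadly expressed gamma subunit gene, the values were 0.10, -0.14, -0.23 and -0.44 (mean -0.18 ± 0.23, SD, n = 4, adjusted p = 0.42).

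RGS genes made up the class with the most lower calls: 9 of 12 were lower in limma's test and 0 higher (0 also at an unadjusted p under 0.05), with a median log2 ratio of -1.0. That is 75% lower, beside 23.6% of all features, and 11 of the 12 had a negative value on every array. Leaving out 1 preparation at a time gave 7 to 9 lower RGS calls. The most negative member was rgs-9, at -1.50, -0.75, -2.12 and -2.37, with a mean of -1.68 ± 0.72 (SD, n = 4, adjusted p = 0.00267), 3.21-fold below the reference. At -1.73, -0.57, -2.06 and -2.27, rgs-11 ran almost in parallel (mean -1.66 ± 0.76, SD, n = 4, adjusted p = 0.00332). So did rgs-8.1, with -1.39, -0.43, -1.33 and -2.31 (mean -1.37 ± 0.77, SD, n = 4, adjusted p = 0.00795), and rgs-10, with -1.20, -0.36, -1.14 and -1.89 (mean -1.15 ± 0.63, SD, n = 4, adjusted p = 0.00921). All 4 of these genes were least negative on preparation 2 and most negative on preparation 4. That order was not particular to them, since alpha subunit genes such as odr-3, gpa-3 and gpa-8 had it as well. In WBcel235, rgs-10 and rgs-11 are direct neighbours among protein-coding genes. The probe sequences were not used here, so whether a probe reads more than 1 RGS gene was not tested. A steadier member was rgs-5, at -0.91, -1.36, -1.34 and -1.21 (mean -1.20 ± 0.21, SD, n = 4, adjusted p = 0.00134).

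EAT-16 and EGL-10 are the RGS proteins best known from worm behaviour: EAT-16 acts on the Gq alpha subunit EGL-30, and EGL-10 on the Go alpha subunit GOA-1. The gene eat-16 was lower in males, with -0.96, -2.49, -0.66 and -1.0, by far the lowest value falling on preparation 2. Its mean was -1.28 ± 0.82 (SD, n = 4, adjusted p = 0.0125), or -0.87 without preparation 2. At -0.55, -0.51, -0.24 and -0.26, egl-10 was below 0 on each array and was not called (mean -0.39 ± 0.16, SD, n = 4, adjusted p = 0.0879), though chemoreceptor centring (-0.73, adjusted p = 0.0355) and weighting of the arrays (-0.31, adjusted p = 0.0457) each brought a call. The ratio of egl-10 exceeded that of eat-16 by 0.89 ± 0.75 on the log2 scale (SD, n = 4), and the ratio of gpb-2, their shared partner, exceeded that of egl-10 by 0.83 ± 0.09 and that of eat-16 by 1.71 ± 0.67 (SD, n = 4). Each of these differences was above 0 on 4 of 4 arrays. An exact two-sided sign-flip test gave each of them p = 0.125, the smallest p that 4 arrays allow (adjusted p = 0.125 over 4 such differences, which were chosen after the values were seen).

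The other RGS genes called lower were rgs-6 at -0.86 ± 0.34 (SD, n = 4, adjusted p = 0.0094), rgs-1 at -0.76 ± 0.41 (SD, n = 4, adjusted p = 0.02) and rgs-7. Both probes of rgs-6 were negative, with means of -0.75 and -0.97. RGS-7 acts on G alpha signalling during asymmetric division of the early embryo, and rgs-7 stood at -1.05, -0.37, -0.74 and -0.85 (mean -0.75 ± 0.29, SD, n = 4, adjusted p = 0.0131). Without preparation 1 it was not called (-0.65, adjusted p = 0.063), nor without preparation 3 (-0.76, adjusted p = 0.0643), and rgs-1 was not called without preparation 3 (-0.81, adjusted p = 0.0621). RGS-1 and RGS-2 both act on GOA-1 in egg laying, and rgs-2 was the RGS gene with a positive mean, 0.12 ± 0.06 (SD, n = 4, adjusted p = 0.553), with arrays from 0.05 to 0.21. Averaged over the 4 arrays, either centring lowers a gene by more than this mean, so the sign of the rgs-2 mean follows the scaling. On preparation 3, ribosomal centring lowers values by only 0.04. In sensory neurons RGS-3 tunes strong stimuli, and rgs-3 stood at -0.56, -1.53, -0.20 and -0.16, lowest on preparation 2 (mean -0.61 ± 0.64, SD, n = 4, adjusted p = 0.0861, and -0.31 without preparation 2).

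**Figure D2:**
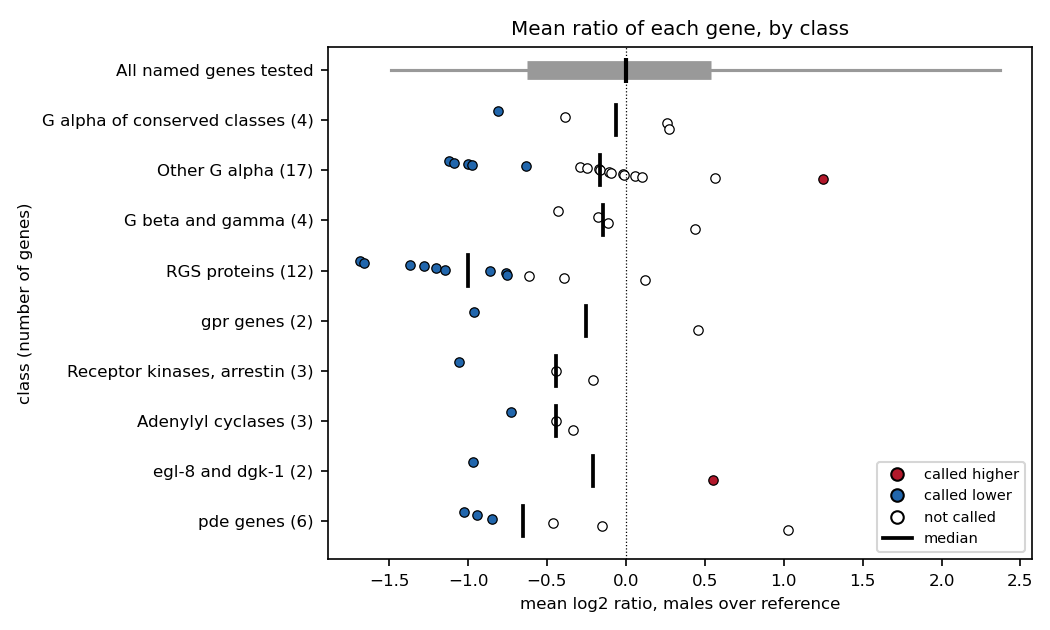
Mean log2 ratio (males over reference, n = 4 arrays, 3 for gpa-14) of each gene by class, filled where called, with class medians as black bars. The top row shows all named genes tested, with the box from the 25th to the 75th percentile and the line from the 5th to the 95th. The median of the RGS genes is -1.0, and that of the other alpha subunits -0.16.

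Receptor kinases phosphorylate active receptors, and arrestin then uncouples them from the G protein. The kinase gene grk-1 was lower in males at -1.17, -1.40, -0.92 and -0.73 (mean -1.05 ± 0.29, SD, n = 4, adjusted p = 0.00324), 2.08-fold below the reference. For grk-2, which chemosensory neurons need for normal responses, the values were -0.64, -0.80, -0.06 and -0.27, all negative but not called (mean -0.44 ± 0.34, SD, n = 4, adjusted p = 0.0922). The arrestin gene arr-1, which acts in olfactory adaptation, had -0.62, 0.18, -0.04 and -0.36 and was not called (mean -0.21 ± 0.35, SD, n = 4, adjusted p = 0.392). GPR-1 and GPR-2 are nearly identical proteins that bind GDP-bound alpha subunits and pull on the spindle of the dividing embryo. The probe of gpr-2 gave 0.98, -0.46, 0.71 and 0.58 (mean 0.45 ± 0.63, SD, n = 4, adjusted p = 0.178). It was called higher without preparation 2 (0.76, adjusted p = 0.0165) and on weighting the arrays (0.69, adjusted p = 0.00359). A further probe, annotated to gpr-1, gpr-2 and dnj-10 together and so not assigned to a gene, gave 0.90, -0.60, 0.60 and 0.40, likewise below 0 on preparation 2 alone. The gene gpr-158 was taken by its name prefix alone, and a function like that of GPR-1 and GPR-2 is not implied. It was lower at -0.96 ± 0.30 (SD, n = 4, adjusted p = 0.00507).

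Among the effectors, egl-8 was lower in males and dgk-1 higher, with both calls near the threshold. EGL-8 is the phospholipase C beta that EGL-30 activates to make diacylglycerol, and DGK-1 is the diacylglycerol kinase that removes it. The arrays of egl-8 spread widely at -1.03, -2.11, -0.76 and 0.02 (mean -0.97 ± 0.88, SD, n = 4, adjusted p = 0.0418), and the call was lost without preparation 1 (-0.95, adjusted p = 0.105), 2 (-0.59, adjusted p = 0.104) or 3 (-1.04, adjusted p = 0.0842). For dgk-1 the values were 0.22, 0.68, 0.98 and 0.31, all above 0, with a mean of 0.55 ± 0.35 (SD, n = 4, adjusted p = 0.0497). That call was lost without any 1 of the 4 preparations (means 0.41 to 0.66) and under ribosomal centring (0.15, adjusted p = 0.745), chemoreceptor centring (0.21, adjusted p = 0.473) or centring on array medians (0.52, adjusted p = 0.0609). The ratio of dgk-1 exceeded that of egl-8 on 4 of 4 arrays, by 1.52 ± 1.04 on the log2 scale (SD, n = 4), with p = 0.125 in the same exact sign-flip test.

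Adenylyl cyclases make cyclic AMP on activation by the Gs alpha subunit. The main neuronal cyclase gene acy-1 was lower at -0.64, -1.34, -0.67 and -0.26 (mean -0.73 ± 0.45, SD, n = 4, adjusted p = 0.0268), and was not called without preparation 1 (-0.76, adjusted p = 0.0696), 2 (-0.52, adjusted p = 0.0516) or 3 (-0.75, adjusted p = 0.0887). At -0.44 ± 0.30 (SD, n = 4, adjusted p = 0.0844), acy-2 was negative on each array, and it was called without preparation 2 (-0.58, adjusted p = 0.0326), under ribosomal centring (-0.84, adjusted p = 0.0387) and under chemoreceptor centring (-0.78, adjusted p = 0.0144). The 2 probes of acy-3 disagreed, with means of -0.65 and 0.11, the latter without a value on preparation 3. Averaged per array, with 1 probe on preparation 3, acy-3 stood at -0.33 ± 0.27 (SD, n = 4, adjusted p = 0.161) and was not called.

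Cyclic nucleotide phosphodiesterases break down cyclic AMP and cyclic GMP. The pde genes were taken by name alone, and whether each product acts on cyclic nucleotides was not examined. Of these 6 genes, 3 (50%) were lower in males and 0 higher, beside 23.6% and 22.1% of all features. PDE-4 degrades cyclic AMP, and pde-4 stood at -0.79, -2.01, -0.79 and -0.51 (mean -1.02 ± 0.67, SD, n = 4, adjusted p = 0.0168). The lowest of these arrays was preparation 2, as it was for pde-2 at -0.94 ± 0.65 and pde-12 at -0.85 ± 0.47 (SD, n = 4, adjusted p = 0.0218 and adjusted p = 0.0164). Both lost their call without preparation 3 (log2 ratios -0.93 and -0.87, adjusted p = 0.0715 and adjusted p = 0.0595). For pde-1 the mean was -0.46 ± 0.14 (SD, n = 4, adjusted p = 0.0517), negative on each array. On preparation 4 only 1 of its 2 probes had a value. The gene was called lower in 6 of 17 alternative fits, with its 2 probes counted singly. Among these were centring on array medians (-0.49, adjusted p = 0.0444) and 1 probe on its own (-0.51, adjusted p = 0.0346). Leaving out any 1 preparation brought no call. The widest spread was that of pde-5, at 0.75, -0.12, 0.95 and 2.53 (mean 1.03 ± 1.10, SD, n = 4, adjusted p = 0.0624). Without preparation 4 its mean was 0.53, and without preparation 2 it was called higher at 1.41 (adjusted p = 0.0352). At -0.15 ± 0.48 (SD, n = 4, adjusted p = 0.582), pde-3 was not called.

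Preparation 2 stood apart from the other arrays, and the G protein genes departed on it in opposite directions by class. Over all features its values correlated with those of the other arrays at 0.71 to 0.79, while the other arrays correlated among themselves at 0.80 to 0.90. Of the 52 genes with 4 values, 21 had their highest value on preparation 2 and 25 their lowest, together 88.5%, beside 70.6% of all features with 4 values. All 6 pde genes and all 4 alpha subunits of conserved classes had their lowest value there, while 12 of the 16 other alpha subunits with 4 values had their highest. The RGS genes divided, 6 highest and 5 lowest. Over all features with 4 values, 39.4% had their lowest value on preparation 2 and 31.1% their highest. Preparation 2 minus the mean of the others was -1.62 for eat-16 and 1.45 for rgs-11. Chemoreceptor genes had a median of 0.77 on preparation 2 and 0.13 to 0.27 on the others. Ribosomal protein genes, which all cells use, had a median of 1.10 on preparation 2 and 0.04 to 0.33 on the others. The part of this array difference in the results was not tested. Without preparation 2, 21 of the 53 genes were lower and 3 higher.

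**Figure D3:**
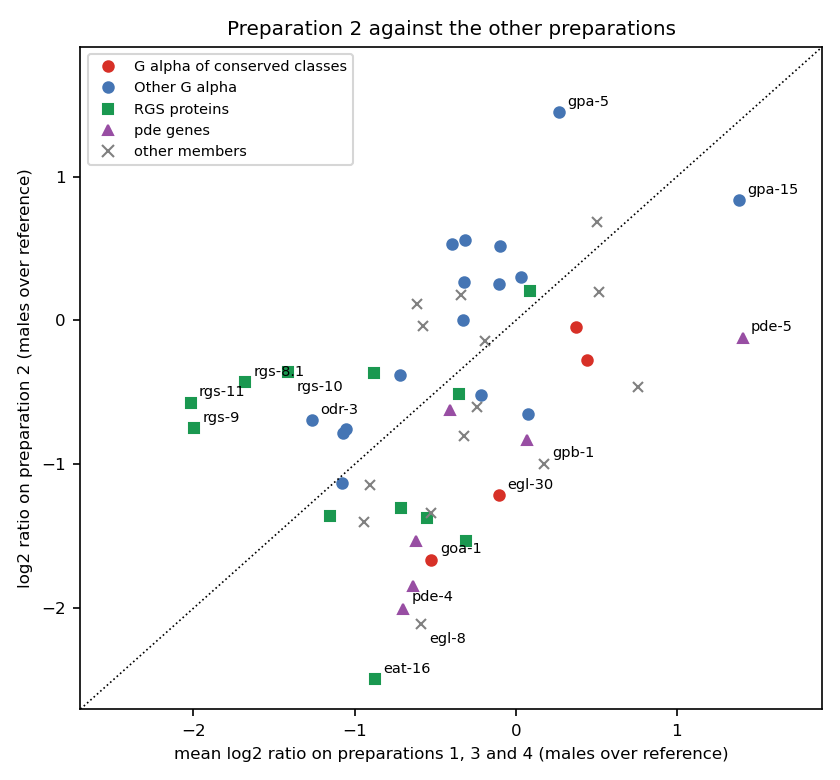
Log2 ratio (males over reference) on preparation 2 against the mean of preparations 1, 3 and 4, for the 52 genes with 4 values, with a dotted line of equality. The pde genes and the conserved alpha subunits lie below the line, and most other alpha subunits above it, as do rgs-8.1, rgs-9, rgs-10 and rgs-11.

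Genes that work with the G proteins were counted from lists of pathway members. The genes rsbp-1 and rsbp-2, for RGS-binding proteins, were listed but not tested. Of 7 tested genes for G protein cofactors, spindle partners and related proteins, 6 were lower and 1 was not called (median -0.85). The share lower was 85.7%, beside 23.6% of all features. The lower genes were led by crml-1 at -1.48 ± 0.36, rap-1 at -1.05 ± 0.21 and lin-5, which encodes a spindle partner of GPR-1 and GPR-2, at -1.02 ± 0.17 (SD, n = 4). The exception was ric-8, an activator of alpha subunits, at 0.03 ± 0.14 (SD, n = 4).

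The cyclic AMP list split. Of 5 genes, kin-1, the catalytic subunit of protein kinase A, was higher at 1.21, 1.67, 4.88 and 1.84, with preparation 3 far above the rest (mean 2.40 ± 1.67, SD, n = 4, adjusted p = 0.011, and 1.58 without preparation 3). The anchoring protein gene aka-1 was lower at -1.63 ± 0.76 (SD, n = 4, adjusted p = 0.00358), and kin-2, the regulatory subunit gene, was not called at -0.28 ± 0.83 (SD, n = 4). Of 37 cyclic GMP genes, mostly guanylyl cyclases of sensory neurons, 5 were lower and 3 higher, with a median of 0.09. These shares, 13.5% lower and 8.11% higher, lie below the 23.6% and 22.1% of all features. Here gcy-36 stood at -0.99 ± 0.24, gcy-9 at 1.27 ± 0.87 and gcy-12 at 1.02 ± 0.87 (SD, n = 4). Neither gcy-9 nor gcy-12 was called under ribosomal centring (log2 ratios 0.87 and 0.62, adjusted p = 0.0639 and adjusted p = 0.35), and gcy-12 was not called under chemoreceptor centring (0.68, adjusted p = 0.248). Without preparation 2, gcy-9 was not called (1.02, adjusted p = 0.0653), nor was gcy-12 without preparation 1, 3 or 4 (0.88, 0.80 and 0.96, with adjusted p = 0.112, 0.132 and 0.0821).

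Receptors for small transmitters gave 7 lower and 2 higher calls among 21 genes (median -0.39), or 33.3% lower and 9.52% higher, with the muscarinic receptor gene gar-3 at -1.07 ± 0.18 and the dopamine receptor gene dop-2 at -0.90 ± 0.29 (SD, n = 4). The serotonin receptor gene ser-1 was higher at 1.20 ± 1.03 (SD, n = 4, adjusted p = 0.0303), but was not called when preparation 2 (0.86, adjusted p = 0.115) or 4 (0.97, adjusted p = 0.0915) was left out, nor under ribosomal and chemoreceptor centring (0.80 and 0.86, adjusted p = 0.0944 and adjusted p = 0.0785). Among 87 neuropeptide receptor genes 19 were lower and 9 higher (median -0.11). That is 21.8% lower and 10.3% higher, beside 23.6% and 22.1% over all features. They included pdfr-1 at -1.84 ± 0.60, dmsr-1 at -1.49 ± 0.14 and dmsr-2 at 1.22 ± 0.69 (SD, n = 4), the last of which was not called under ribosomal (0.82, adjusted p = 0.178) or chemoreceptor centring (0.87, adjusted p = 0.11). Of 9 genes of sensory adaptation and sensory channels 4 were lower and 2 higher, or 44.4% and 22.2%, beside 23.6% and 22.1% of all features. The diacetyl receptor gene odr-10 stood at -1.11 ± 0.20, the calcineurin gene tax-6 at -1.08 ± 0.65 and the channel gene ocr-3 at 1.30 ± 0.51 (SD, n = 4). Under ribosomal centring, ocr-3 was not called (0.89, adjusted p = 0.0662).

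The neuron marker lists differed in direction. Of 10 tested markers of all neurons, 5 were lower and 5 not called, with single means from -1.31 to 0.27 and a median of -0.63. That is 50% lower, beside 23.6% of all features. The median of that list was -0.54, -0.99, -0.36 and -0.70 on preparations 1 to 4. Of 17 markers of ciliated sensory neurons, 3 were lower and 1 higher (median -0.13, means from -1.01 to 0.69), or 17.6% and 5.88%, both below the shares of all features. Of 10 markers of male ciliated neurons, 7 were higher and 1 lower (median 0.81, means from -0.64 to 3.59), with pkd-2 at 2.72 ± 0.92 (SD, n = 4). Those shares were 70% higher and 10% lower, beside 22.1% and 23.6% of all features. Body muscle markers were higher for 4 of 8 (50%, median 1.07). Oocyte and yolk markers were lower for 8 of 12 (66.7%) and higher for 2 (16.7%), with a median of -1.18. The part of these cell types in the ratios of the G protein genes was not tested.

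**Figure D4:**
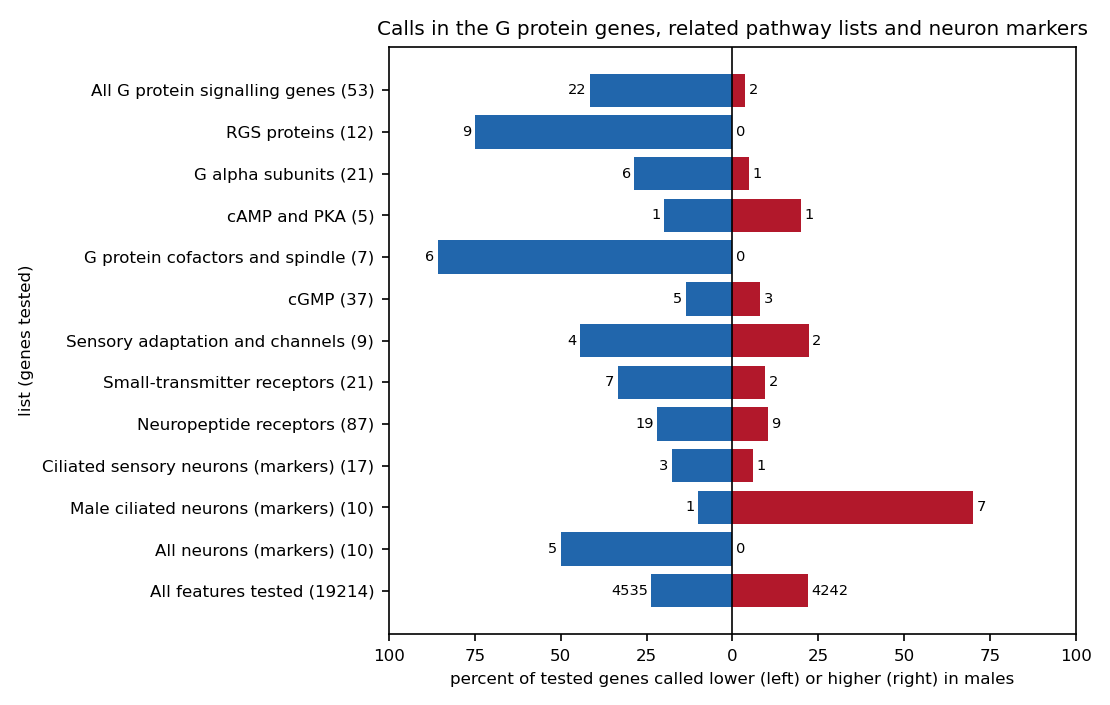
Percent of tested genes called lower (left, blue) and higher (right, red) in males for the G protein signalling genes, their RGS and alpha subunit classes, related pathway lists and 3 neuron marker lists, with the number called beside each bar and the number tested in the axis label. The RGS genes reach 75% lower, and all features tested 23.6% lower and 22.1% higher.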

How the data were processed

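The deposited table holds log2 ratios for 20000 probes on 4 arrays, with array medians near 0, as the authors left them; image analysis, background correction, spot filters and dyes are not given in the sources used here. The base 2 was read from the values: 100% of deposited ratios under 3 are whole multiples of 0.001 (within 0.01 of a step). Per array, 19424 to 19761 probes had a value. Spot intensities were not used here, so faint spots could not be filtered, and the 4 arrays limit the precision. The labels do not say whether preparations came from separate cultures, so p-values measure only the spread between preparations, which may be technical.

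Probe names came from the platform annotation and were brought to RefSeq's WBcel235 symbols by gene identifier (all 53 members matched), and averaged per gene and array. Probes with several symbols or none stayed unnamed. Of 19513 features, 19214 with values on at least 3 arrays entered limma 3.58.1 (R 4.3.3): a two-sided eBayes test of the mean against 0, adjusted by Benjamini-Hochberg across every feature. The reference's own spread is not in this test. Calls are at adjusted p under 0.05. The fit was tested on simulated data. The first simulation drew noise from each feature's own SD and missed the recovery set for 4-fold changes. The noise was then drawn from limma's moderated SD, and the simulation passed. The fit itself was not altered, but it may miss more real differences than the passing simulation shows. Figures used matplotlib 3.10.9 in Python 3.11.15.

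The members, lists and tests were chosen with earlier results of these data known. Values on every array are given for members called with at least a 2-fold difference and for a list of core members. Lists are named by up to 3 called genes of largest absolute ratio, and other genes were named after their values were seen. No sequences or coordinates are given. The result of 1 pathway list is not reported here. Alternatives were other scalings between arrays, stricter and looser limits on missing values, eBayes with robust priors, weights per array, single probes, an adjusted p under 0.01, the earlier and later pair of arrays in the sample titles as covariate or random block, and leaving out each preparation, where at least 2 of the 3 remaining values were required.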

Additional observations from a re-analysis of the deposited data

Results flagged for a closer look

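Preparation 2 lay apart from the other arrays, by Dixon's test of the extreme value among 4, for 2 of the 52 genes with 4 values. For rgs-1 its -1.37 was the lowest, and for gpa-7 its -0.78 was the highest. Such a test marks about 1 in 20 groups by chance.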

How the results depend on the processing

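Of the 24 called genes, 12, all lower in males, kept their call under all 16 alternatives, and no called gene changed sign. The alternatives mainly moved the higher calls, from 2 of 53 genes to 0 under ribosomal centring, chemoreceptor centring or an adjusted p under 0.01, to 1 under centring on array medians, values on at least 2 arrays or every probe on its own, to 4 with that pair of arrays, earlier or later, as a random block and to 7 with array weights (dgk-1, gpa-15, pde-5, gpr-2, gpb-2, gpa-12 and gsa-1), where preparation 3 weighed 4.73 and the others 0.308 to 1.08. Lower calls went from 22 to 12 at an adjusted p under 0.01, to 24 with the random block and to 27 with array weights. Calls over all features rose too, to 5044 higher and 5182 lower with the random block. With array weights they rose to 6074 higher and 6146 lower, against 4242 and 4535 in the main fit. The median of the 53 genes was -0.83 under ribosomal and -0.77 under chemoreceptor centring, where 1624 or 1999 features in all were called higher, against 4242. At an adjusted p under 0.01, 2393 features were called higher and 2683 lower. Leaving out 1 preparation gave 0 to 3 higher and 14 to 21 lower genes, and 2745 to 3754 higher and 2902 to 4196 lower features, the lowest without preparation 3. These ranges hold fewer samples. Adding the pair of arrays in the sample titles as a covariate left 22 lower and 2 higher calls, without dgk-1 and with pde-5. No paired analysis was possible because there is 1 group. The causes of these changes were not tested. Signal over background was not used here.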
